A study of Homo sapiens with 24 samples.

Results

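The heat shock chaperone genes followed here were DNAJA4, DNAJA1, DNAJB1, HSPA1A, HSPA1B, HSPA8, HSPA4L, HSPH1, HSPB1 and HSP90AA1. These 10 genes were chosen by name from the gene count table because DNAJA4 had been seen to fall strongly in edited stem cells, and all 10 were found among the 61551 genes used. The cells were H9, an established line of human embryonic stem cells (hESCs). HAR123 is a non-coding human accelerated region inside the gene SMG6. Unedited cells, called hHAR123, carried the human element. In HAR123-KO cells the element was deleted by CRISPR, and in cHAR123 and mHAR123 cells it was replaced by the chimpanzee or the mouse version. Each genotype was sampled as undifferentiated hESCs and as neuroectoderm made from them by 5 days of culture with Noggin at 500 ng/ml and SB431542 at 10 µM, which block BMP and activin signaling. There were 3 libraries for each of the 8 combinations of genotype and stage. A pair of independent clones per genotype was used in the study, but which clone gave which library is not given in the sources used here, so the spread between libraries need not be that between clones, and clonal differences cannot be told apart from genotype.

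Heat shock proteins bind unfolded or newly made proteins and keep them from clumping. HSP70 proteins hold a client in cycles of ATP hydrolysis that J-domain partners (the DNAJ or HSP40 proteins) start and HSP110 proteins end by exchanging the nucleotide, after which clients such as kinases and hormone receptors can pass to HSP90. Small heat shock proteins hold unfolded clients without ATP. Under stress, heat shock factor 1 binds the heat shock element, a run of GAA and TTC units, in front of many of these genes, while pluripotent cells are known for high chaperone levels without stress.

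Total counts ranged from 23334732 to 35198684 in the 12 hESC libraries and from 21022748 to 25978892 in the 12 neuroectoderm libraries, and the most similar library belonged to the same genotype and stage for 24 of 24 libraries. All 8 pluripotency markers were present in hESCs, with summed levels of 7352 to 7899 CPM (counts scaled to a common library size), and their sum was 1718 to 2308 CPM in neuroectoderm. The 8 neuroectoderm markers summed to 30.03 to 44.1 CPM in hESCs and, in neuroectoderm, to 1207 to 1233 CPM in hHAR123, 630 to 647 in HAR123-KO, 1262 to 1289 in cHAR123 and 1211 to 1227 in mHAR123. All 8 neural crest markers were present in neuroectoderm of every genotype, with sums of 104 to 108 CPM in hHAR123, 1465 to 1490 in HAR123-KO, 250 to 262 in cHAR123 and 287 to 290 in mHAR123. The deletion cannot be checked in exon counts because HAR123 is not exonic. In neuroectoderm, the gene lists that the study names for cHAR123 and mHAR123 fit the counts of the columns labelled mHAR123 and cHAR123, respectively, while in hESCs the lists fit the columns of the same name. Which of both names belongs to which neuroectoderm column was not settled, and all values below are given by column label. A stage change of cHAR123 or mHAR123 by label may therefore set one genotype against the other.

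The promoters of the chaperone genes are shown first, because the heat shock element is the feature that the family is known to share. RefSeq windows from 250 bases before to 50 bases after an annotated start (GRCh38.p14) were found for 10 of 10 genes, 17 windows in all. A run of 3 alternating units (GAANNTTCNNGAA or TTCNNGAANNTTC, each the reverse complement of the other) occurred in 3 of the 10 genes, DNAJA1, HSPA8 and HSP90AA1, and in 0.608% of all 27305 genes with a window. A pair of units (GAANNTTC or TTCNNGAA, both palindromes, and contained in every longer run) occurred in 9 of the 10 genes, all but HSPH1, and in 16.2% of all genes. Both of the short stretches below from DNAJA4 and from DNAJB1 hold the same 8 letters, GAAGGTTC and then GAAGCTTC, and the stretches from HSPA1A and HSPA1B hold the same GAATATTC. Capitals mark the matched letters, all sequences run 5′ to 3′ on the strand of the gene, and a match is a description of letters, not evidence that a factor was bound.
DNAJA4, chr15:78264460-78264489 (+): ggaacctccgcGAAGGTTCtaggcctttgt
DNAJA4, chr15:78264499-78264528 (+): gtctccttgcgGAAGCTTCcgccggcgccg
DNAJB1, chr19:14518456-14518485 (-): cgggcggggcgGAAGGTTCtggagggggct
DNAJB1, chr19:14518426-14518455 (-): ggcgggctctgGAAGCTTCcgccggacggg
DNAJA1, chr9:33025267-33025296 (+): cgccgggcgGAACTTTCCAGAAcgctcggt
HSPA8, chr11:123062171-123062200 (-): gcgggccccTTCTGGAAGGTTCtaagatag
HSP90AA1, chr14:102087112-102087141 (-): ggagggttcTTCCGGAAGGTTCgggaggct
HSPA1A, chr6:31815426-31815455 (+): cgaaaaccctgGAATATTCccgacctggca
HSPA1B, chr6:31827622-31827651 (+): cgaaacccctgGAATATTCccgacctggca

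Levels are given as CPM scaled by trimmed mean of M values (TMM) over the 24 libraries, as mean ± SD with n = 3. To compare genes, the level was divided by exon length and given per kb. In hHAR123 hESCs the constitutive HSP70 gene HSPA8 led at 384 ± 0.570 CPM per kb, followed by HSP90AA1, the inducible cytosolic HSP90, at 271 ± 3.02, and by the stress-inducible HSP70 gene HSPA1A at 107 ± 4.99. DNAJA1 stood at 70.4 ± 1.02, HSPA1B at 53.5 ± 2.30 and the small heat shock protein gene HSPB1 at 45.7 ± 1.05 CPM per kb. HSPH1 and HSPA4L, both of the HSP110 class, were at 20.9 ± 0.233 and 0.612 ± 0.0257 CPM per kb, DNAJB1 was at 9.31 ± 0.325, and DNAJA4 was lowest at 0.326 ± 0.0330. Every neighboring pair in that order (HSPA8, HSP90AA1, HSPA1A, DNAJA1, HSPA1B, HSPB1, HSPH1, DNAJB1, HSPA4L, DNAJA4) differed by more than its SDs, and the order was the same in hESCs of all 4 genotypes. The order also depends on the annotated exon lengths (from 1623 bases for HSPB1 to 11439 for HSPA4L), which the SDs do not cover. In hHAR123 neuroectoderm HSPA1A led at 134 ± 6.07 CPM per kb, and HSP90AA1 (106.5 ± 1.94) and HSPA8 (106.3 ± 1.75) did not differ beyond their spread. HSPA1A also led in cHAR123 and mHAR123 neuroectoderm, whereas HAR123-KO neuroectoderm kept the hESC order.

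**Figure D1:**
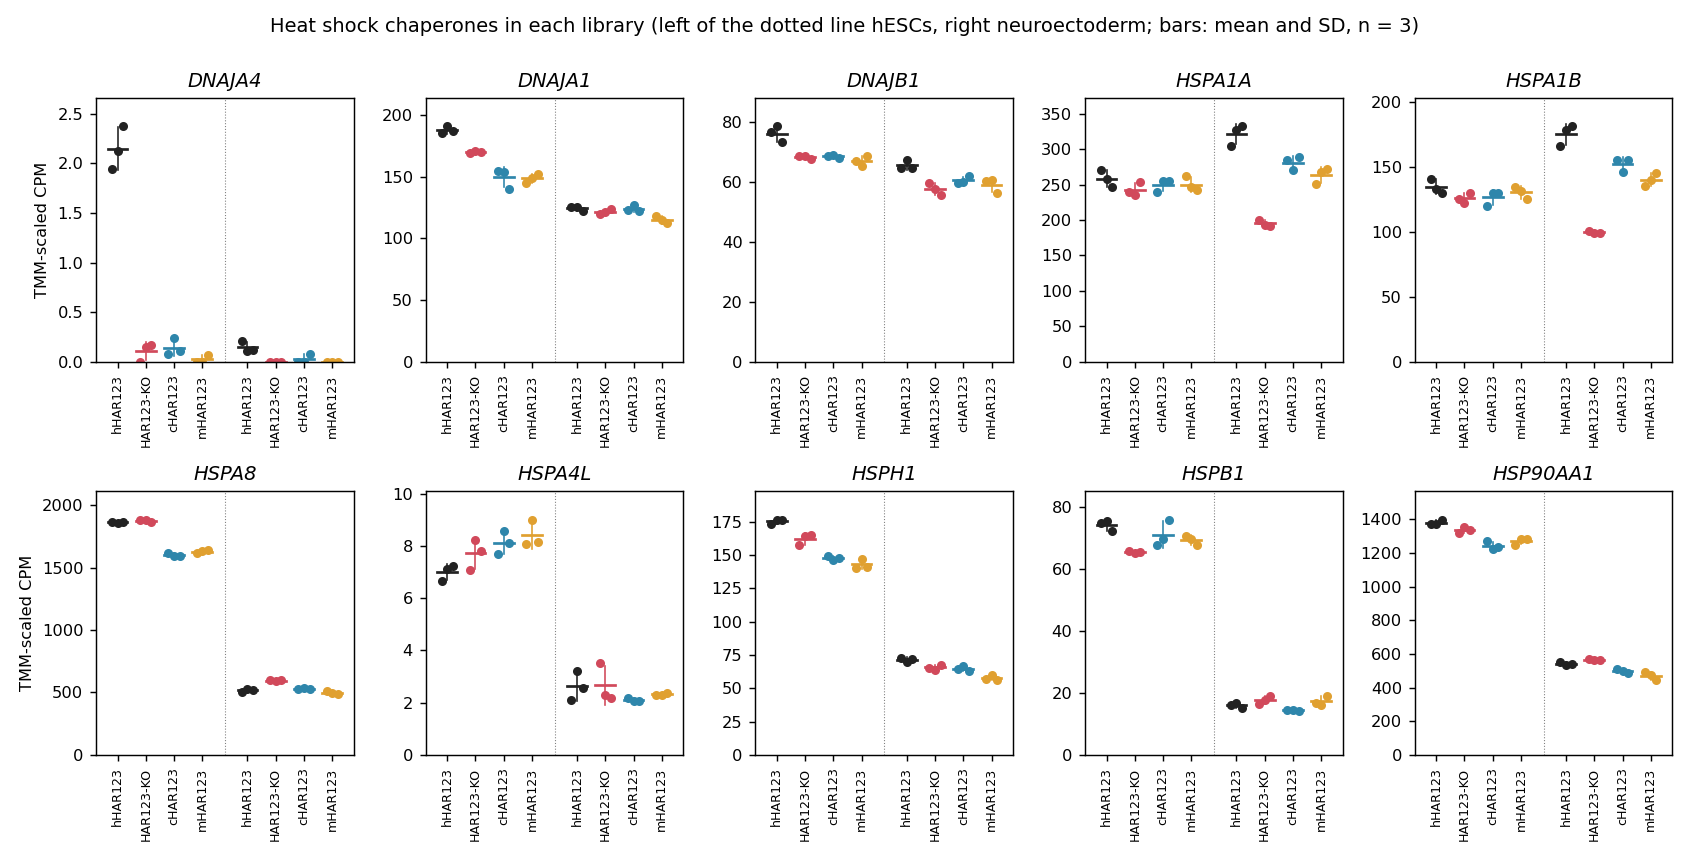
TMM-scaled CPM of each chaperone gene (vertical axis, linear from 0) in every library, by genotype, with hESCs left and neuroectoderm right of the dotted line; points are libraries, horizontal bars means and vertical bars SDs (n = 3). DNAJA4 is high in hHAR123 hESCs alone among the 8 groups, and in neuroectoderm HSPA1A and HSPA1B are lowest in HAR123-KO.

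DNAJA4 (ENSG00000140403, GRCh38 chr15:78264086-78282196, plus strand, 6591 exonic bases) encodes a type A J-domain co-chaperone of HSP70. It was weakly expressed, and almost only in unedited hESCs. The 3 hHAR123 hESC libraries held 55, 64 and 76 counts. The HAR123-KO hESC libraries held 0, 4 and 5, the cHAR123 libraries 2, 6 and 3, and the mHAR123 libraries 0, 0 and 2. All 9 edited libraries were below the 3 unedited ones, at 0 to 0.240 CPM against 1.94 to 2.37 CPM. This is the contrast for which DNAJA4 was picked, so the values are a description and no p is given.

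The 3 libraries of each group together held 195 counts in hHAR123 hESCs, 9 in HAR123-KO, 11 in cHAR123 and 2 in mHAR123. Scaled by library size, DNAJA4 was 19.0 times higher in hHAR123 than in HAR123-KO hESCs (95% exact binomial interval of the count ratio 9.81 to 42.2), 15.4 times higher than in cHAR123 (8.396 to 31.3) and 92.6 times higher than in mHAR123 (25.3 to 769.8). Both mHAR123 counts came from replicate 3. Its fitted log2 fold change of -6.29 ran from -9.00 to -5.70 on leaving out each library in turn, and was lowest without that replicate, where the group is at 0 and the fitted value is no bound. The count intervals cover counting error only. They overlap one another and share the hHAR123 counts, so they neither order the 3 edited genotypes nor show them to be equal. The mHAR123 libraries (0 to 0.0728 CPM, 0 to 2 counts) were all below those of cHAR123 (0.0796 to 0.240 CPM, 2 to 6 counts). Those of HAR123-KO (0 to 0.166 CPM) overlapped both. At so few counts these differences had no edgeR test. DNAJA4 was 1 of 10 chaperone genes called as a differentially expressed gene (adjusted p under 0.01 and absolute log2 fold change over 1 in edgeR) in each of these 3 comparisons, where 1.18% (HAR123-KO), 0.850% (cHAR123) and 1.23% (mHAR123) of all genes tested were called. The choice of DNAJA4 fixed that count, and nothing is read from it. The other 9 members gave 0 calls in each.

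Neuroectoderm gave values of DNAJA4 that the choice did not use. The hHAR123 neuroectoderm libraries held 5, 3 and 3 counts, cHAR123 0, 0 and 2, and both HAR123-KO and mHAR123 held 0 in every library. All 9 edited libraries were again below the 3 hHAR123 libraries, now at a level near the detection limit. With 3 counts over the group taken as the limit for a count of 0, the hHAR123 level was 3.71 times that limit for HAR123-KO and 3.73 times that for mHAR123 neuroectoderm. The 11 hHAR123 counts were taken as exact there, so these ratios are not lower bounds of the fold difference. The hHAR123 to cHAR123 ratio was 5.55 (1.21 to 51.6). The exact two-sided permutation test over libraries gave p = 0.1 for each of the 3 edited genotypes, the smallest p that 3 against 3 allows. DNAJA4 did not pass the low count filter in these comparisons, and so had no edgeR p there.

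Within hHAR123 cells DNAJA4 was 15.0 times lower in neuroectoderm than in hESCs (8.19 to 30.5), or -3.85 ± 0.33 (SE) on the log2 scale. Its divergent neighbor transcript DNAJA4-DT had 0 counts in all 24 libraries. Of the 19 annotated genes whose start lies within 250 kb of that of DNAJA4, 9 had a mean of at least 1 CPM: TBC1D2B, IDH3A, CIB2, ACSBG1, ENSG00000259562, SKIC8, CRABP1, IREB2 and HYKK. In hESCs their log2 fold changes against hHAR123 ran from -0.20 to 0.38 for HAR123-KO, from -0.14 to 0.41 for cHAR123 and from -0.14 to 0.21 for mHAR123, none near that of DNAJA4. In neuroectoderm 5 of the 9 neighbors were higher in HAR123-KO than in hHAR123 at an adjusted p under 0.01 (CRABP1, ACSBG1, TBC1D2B, IDH3A and HYKK) and IREB2 was lower. Of all genes tested 24.2% were higher and 19.9% lower, which is 44.1% in either direction. In cHAR123 and mHAR123, CRABP1 alone of the 9 passed, beside 9.89% and 14.0% of all genes tested. ACSBG1, an acyl-CoA synthetase gene and the closest of the 9 by start, was the one neighbor past the fold threshold as well. It held 6, 16 and 14 counts in hHAR123 and 40, 35 and 34 in HAR123-KO neuroectoderm, without overlap, a log2 fold change of 1.58 ± 0.30 (adjusted p = 9.99e-06, edgeR). Its values of -0.44 ± 0.41 in cHAR123 and 0.40 ± 0.36 in mHAR123 did not pass. IREB2 (-0.11 ± 0.04, adjusted p = 0.00758, edgeR) no longer passed without any 1 of 5 of the 6 libraries (all but hHAR123 replicate 2), HYKK (0.53 ± 0.17, adjusted p = 0.00817, edgeR) without hHAR123 replicate 2 or 3 or HAR123-KO replicate 1 or 3, and IDH3A (0.38 ± 0.10, adjusted p = 0.00105, edgeR) without hHAR123 replicate 2, with adjusted p up to 0.0436, 0.0864 and 0.0163. CRABP1, which encodes a cellular retinoic acid binding protein, averaged 93.9 CPM in hHAR123 and 180 CPM in HAR123-KO, which is 0.94 ± 0.04 log2 units higher (SE, adjusted p = 9.89e-28, edgeR). Its log2 fold change was 0.62 ± 0.04 in cHAR123 (adjusted p = 5.74e-17, edgeR) and 0.67 ± 0.04 in mHAR123 (adjusted p = 3.29e-16, edgeR).

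**Figure D2:**
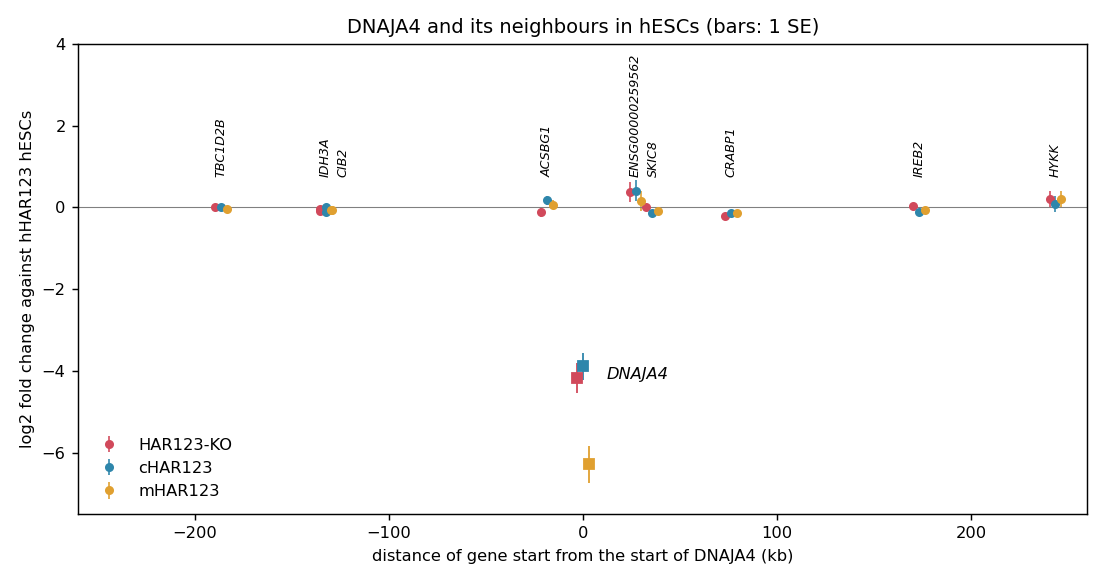
Log2 fold change against hHAR123 hESCs (vertical axis, bars 1 SE) of DNAJA4 (squares) and the 9 neighboring genes of at least 1 CPM (circles) by the distance of their start from that of DNAJA4 in kb (horizontal axis; points of the 3 edited genotypes are shifted by 3 kb for legibility). The neighbors lie between -0.20 and 0.41, far above DNAJA4 in every edited genotype.

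The genes whose 8 group means were closest to those of DNAJA4 (Euclidean distance of centered log2 levels, among 15960 genes with a symbol and at least 1 CPM) were FAR2P3, FAR2P2 and SYT5, at distances of 2.30, 2.58 and 2.68. The pseudogene FAR2P3 averaged 6.09 CPM in hHAR123 hESCs and 0.576, 1.01 and 0.836 CPM in HAR123-KO, cHAR123 and mHAR123 hESCs. In neuroectoderm FAR2P3 averaged 3.14 CPM in hHAR123 and 0.945, 1.21 and 1.02 CPM in the same edited genotypes. None of these 3 lies on chromosome 15, and none is a chaperone gene. This ranking used the contrast that chose DNAJA4 and is a description. FAR2P2 and FAR2P3 are near copies of FAR2, so their counts are uncertain.

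DNAJA1 (ENSG00000086061, chr9:33025273-33039907) encodes the abundant type A partner of HSP70 and is the closest relative of DNAJA4 in the set. In hESCs it did not show the loss seen for DNAJA4. DNAJA1 measured 186 to 191 CPM in hHAR123, 169 to 171 CPM in HAR123-KO, 140 to 155 CPM in cHAR123 and 145 to 152 CPM in mHAR123 hESCs. No edited library reached the lowest hHAR123 library, and the log2 fold changes against hHAR123, given as description, were -0.13 ± 0.03, -0.32 ± 0.03 and -0.33 ± 0.03 (SE) in the order named.

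Among the other genes in hESCs, HSPA8 (ENSG00000109971, chr11:123057489-123063230) stood at 1862 ± 2.76 CPM in hHAR123 and 1876 ± 10.7 in HAR123-KO, but at 1601 ± 12.02 in cHAR123 and 1628 ± 11.6 in mHAR123. HSPH1 (ENSG00000120694, chr13:31134973-31162388), which resets HSP70 by nucleotide exchange, stood at 175 ± 1.95, 162 ± 4.29, 148 ± 1.32 and 143 ± 3.67 CPM in the same order. HSP90AA1 (ENSG00000080824, chr14:102080742-102139699) measured 1381 ± 15.4, 1338 ± 18.03, 1241 ± 25.2 and 1271 ± 20.5 CPM. All of these differences from hHAR123 were under 0.30 on the log2 scale in size. DNAJB1 stood at 76.2 ± 2.66, 68.4 ± 0.581, 68.7 ± 0.503 and 67.0 ± 1.75 CPM, and HSPB1 at 74.2 ± 1.71, 65.6 ± 0.302, 71.2 ± 4.35 and 69.4 ± 1.54 CPM, in the same order. HSPA1A and HSPA1B, the stress-inducible pair, had overlapping libraries in hHAR123 and every edited genotype, with log2 fold changes between -0.08 and -0.04. HSPA4L (ENSG00000164070, chr4:127781821-127840733), an HSP110 gene known for its expression in testis, was the one member whose means were higher in all 3 edited genotypes, at 7.0 ± 0.294 CPM in hHAR123 against 7.71 ± 0.597, 8.13 ± 0.452 and 8.42 ± 0.516. Its HAR123-KO libraries overlapped those of hHAR123, and those of cHAR123 and mHAR123 did not. All 3 comparisons share the 3 hHAR123 libraries, so a deviation of those libraries would enter all of them.

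The comparisons among the edited hESCs leave the hHAR123 libraries out. None of the 9 members tested was called between cHAR123 and HAR123-KO (0.271% of all genes were), between mHAR123 and HAR123-KO (0.244%) or between mHAR123 and cHAR123 (0.158%) in edgeR. DESeq2 likewise called 0 in each, while 5, 5 and 0 members had an unadjusted p under 0.05. The share of all genes at that unadjusted p is not given here, so nothing is read from these member counts. At an adjusted p under 0.01 and any fold, 4 of 9 were lower in cHAR123 than in HAR123-KO, where 4.28% of all genes were, and 3 of 9 were lower in mHAR123 than in HAR123-KO, where 3.84% were. HSPA8 gave log2 fold changes of -0.23 ± 0.02 (adjusted p = 1.14e-09, edgeR) in cHAR123 and -0.21 ± 0.02 (adjusted p = 3.84e-09, edgeR) in mHAR123 against HAR123-KO. For DNAJA1 they were -0.18 ± 0.03 (adjusted p = 0.000181, edgeR), which reached 0.0168 without cHAR123 replicate 3, and -0.20 ± 0.03 (adjusted p = 1.74e-05, edgeR). HSPH1 differed in mHAR123 by -0.19 ± 0.03 (adjusted p = 7.26e-05, edgeR). The cHAR123 differences of HSPH1 (-0.13, adjusted p = 0.00409, edgeR) and HSP90AA1 (-0.10, adjusted p = 0.00293, edgeR) each missed the threshold on leaving out single libraries, 5 of the 6 for HSPH1 (HAR123-KO replicates 1, 2 and 3 and cHAR123 replicates 2 and 3) and 4 of the 6 for HSP90AA1 (replicates 1 and 2 of HAR123-KO and 2 and 3 of cHAR123), with adjusted p up to 0.0287 and 0.0344. Between mHAR123 and cHAR123, no member passed, and 0.783% of all genes did. The 95% intervals of that difference stayed within -0.14 and 0.22 log2 units for every member tested, HSPA4L having the widest.

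Neuroectoderm of hHAR123 cells, compared with the hESCs they came from, held less of most of these chaperones and more of the inducible HSP70 pair. HSPA8 measured 1859 to 1865 CPM in hESCs and 507 to 524 CPM in neuroectoderm. HSP90AA1 measured 1371 to 1399 CPM in hESCs and 536 to 554 CPM in neuroectoderm. HSPB1 (ENSG00000106211, chr7:76302673-76304295), whose product holds unfolded clients without ATP, measured 72.3 to 75.5 CPM in hESCs and 15.2 to 16.9 CPM in neuroectoderm. In all 3 genes the stages were far apart with no overlap. The log2 fold changes were -1.84 ± 0.03 for HSPA8 (adjusted p = 2.95e-39, edgeR), -1.34 ± 0.03 for HSP90AA1 (adjusted p = 4.06e-34, edgeR) and -2.19 ± 0.05 for HSPB1 (adjusted p = 1.22e-31, edgeR). HSPH1 fell by 1.29 and HSPA4L fell by 1.40 on the log2 scale (SE 0.04 and 0.13, adjusted p = 2.6e-29 and 1.86e-12, edgeR). Of the 9 members other than DNAJA4, 5 were called lower, where 21.2% of all genes were.

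The same 5 members (HSPA8, HSP90AA1, HSPB1, HSPH1 and HSPA4L) were called lower in neuroectoderm of HAR123-KO, cHAR123 and mHAR123 cells too, 5 of 9 tested in each, where 19.1%, 20.8% and 20.7% of all genes were called lower. Across the 4 genotypes their log2 fold changes were -1.84 to -1.58 for HSPA8, -1.42 to -1.22 for HSP90AA1, -2.28 to -1.86 for HSPB1, -1.29 to -1.17 for HSPH1 and -1.93 to -1.40 for HSPA4L. DNAJA1 fell less, with log2 fold changes of -0.58 ± 0.03 in hHAR123 (adjusted p = 7.08e-19, edgeR), -0.47 ± 0.03 in HAR123-KO (adjusted p = 1.45e-21, edgeR), -0.25 ± 0.03 in cHAR123 (adjusted p = 1.54e-08, edgeR) and -0.35 ± 0.03 in mHAR123 (adjusted p = 2e-14, edgeR). In each genotype DNAJA1 libraries of the stages did not overlap.

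Scaling matters for the smaller stage changes. TMM factors were 0.895 to 0.944 in hESCs and 1.06 to 1.13 in neuroectoderm, and scaling by library totals alone moved the median of all genes by 0.29 log2 units upward in hHAR123, 0.20 in HAR123-KO, 0.21 in cHAR123 and 0.17 in mHAR123. It also moved the share of called genes that were higher in hHAR123 neuroectoderm from 53.7% to 65.4%. By totals alone HSPH1 gave -1.0 in hHAR123 and -0.96 in cHAR123, neither past the fold threshold, and DNAJA1 gave -0.29 in hHAR123 and -0.04 in cHAR123 (adjusted p = 0.259, edgeR). DNAJB1 (ENSG00000132002, chr19:14514769-14560391), the type B partner that heat shock induces with HSP70, fell by 0.21 ± 0.04 in hHAR123 by TMM (adjusted p = 1.81e-05, edgeR) but gave 0.09 by totals alone (adjusted p = 0.0509, edgeR). No direction is therefore given for DNAJB1 between the stages.

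HSPA1A (ENSG00000204389, chr6:31815543-31817946) and HSPA1B (ENSG00000204388, chr6:31827738-31830254) encode the same stress-inducible HSP70 protein from neighboring genes, and their stage change depended on genotype. In hHAR123 cells HSPA1A measured 271, 258 and 247 CPM in hESCs and 305, 328 and 332 CPM in neuroectoderm. In HAR123-KO cells it measured 240, 235 and 253 CPM in hESCs and 201, 193 and 192 CPM in neuroectoderm. All hHAR123 neuroectoderm libraries were thus above all hHAR123 hESC libraries. All HAR123-KO neuroectoderm libraries were below all HAR123-KO hESC libraries. The log2 fold change was 0.33 ± 0.03 in hHAR123 (adjusted p = 2.76e-11, edgeR) and -0.30 ± 0.03 in HAR123-KO (adjusted p = 4.53e-14, edgeR). HSPA1B changed by 0.39 ± 0.04 in hHAR123 (adjusted p = 1.45e-12, edgeR) and by -0.32 ± 0.03 in HAR123-KO (adjusted p = 3.15e-13, edgeR). The signs held by library totals alone, although the sizes did not: HSPA1A gave 0.62 and -0.10 and HSPA1B 0.68 and -0.12.

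By label, the cHAR123 and mHAR123 cells lay between. Since the neuroectoderm columns of these 2 genotypes may carry each other's name, these changes hold for the labels and need not be those of a single genotype. In cHAR123 cells HSPA1A rose by 0.19 ± 0.03 (adjusted p = 1.22e-07, edgeR) and HSPA1B by 0.29 ± 0.03 (adjusted p = 2.39e-10, edgeR). In mHAR123 cells the values were 0.09 ± 0.03 for HSPA1A (adjusted p = 0.00721, edgeR) and 0.12 ± 0.03 for HSPA1B (adjusted p = 0.00141, edgeR). These last changes are at the limit of what 3 libraries resolve: HSPA1A stages overlapped in mHAR123 and its adjusted p reached 0.205 and that of HSPA1B 0.0769 on leaving out single libraries (mHAR123 hESC replicate 2 or 3 for both genes, and also mHAR123 neuroectoderm replicate 2 or 3 for HSPA1A). Of the 9 members other than DNAJA4, 2 were higher and 7 lower in hHAR123 neuroectoderm at an adjusted p under 0.01. Of all genes 40.3% were higher and 39.7% lower there, 80.1% in either direction. In HAR123-KO 0 members were higher and 9 lower, where 39.8% of all genes were higher and 39.4% lower, 79.2% in either direction. DNAJB1, whose value depended on the scaling, is among those lower in both.

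**Figure D3:**
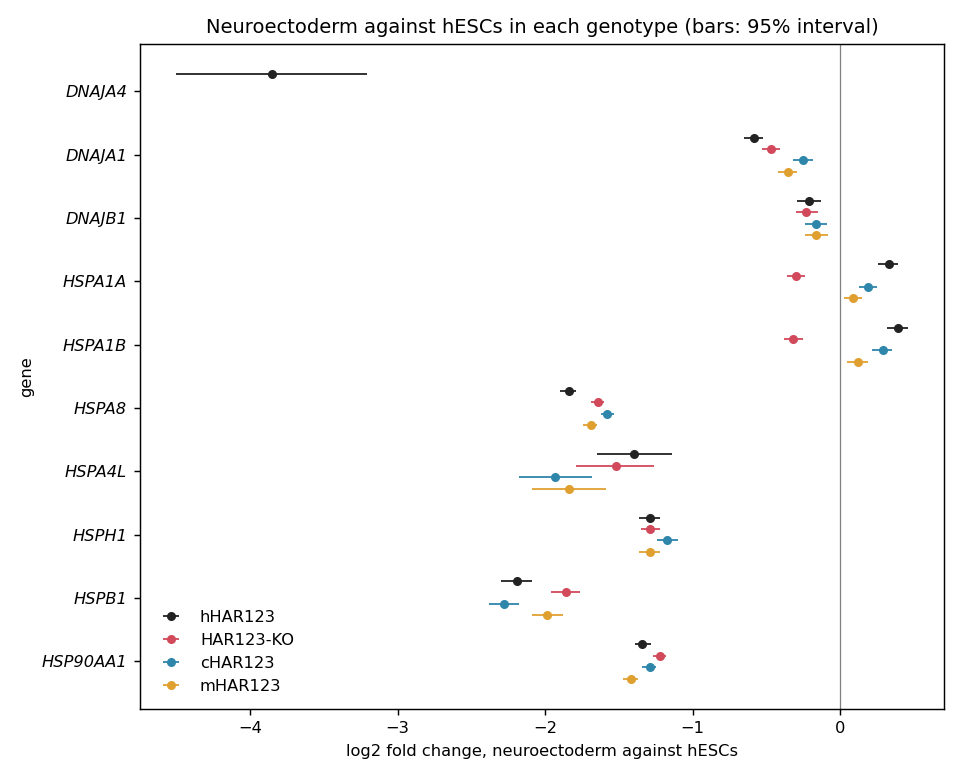
Log2 fold change from hESCs to neuroectoderm (horizontal axis) of each chaperone gene in the 4 genotypes, with 95% intervals from edgeR as bars. HSPA8, HSPA4L, HSPH1, HSPB1 and HSP90AA1 lie below -1 in every genotype, and HSPA1A and HSPA1B lie above 0 in hHAR123 and below 0 in HAR123-KO; DNAJA4 passed the low count filter in hHAR123 only.

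Comparing genotypes within neuroectoderm, the inducible HSP70 pair gave the largest difference of the members tested. HSPA1A measured 305 to 332 CPM in hHAR123, 192 to 201 CPM in HAR123-KO, 270 to 289 CPM in cHAR123 and 251 to 272 CPM in mHAR123 neuroectoderm. HSPA1B measured 166 to 181 CPM in hHAR123, 99.3 to 101 CPM in HAR123-KO, 146 to 156 CPM in cHAR123 and 135 to 145 CPM in mHAR123. For both genes every edited library was below every hHAR123 library, and the HAR123-KO libraries were below all others. HAR123-KO held 0.607 of the hHAR123 level of HSPA1A, a log2 fold change of -0.72 ± 0.03 (adjusted p = 1.76e-25, edgeR), and 0.570 of that of HSPA1B, -0.81 ± 0.04 (adjusted p = 7.33e-26, edgeR). The fold changes were smaller in cHAR123, at -0.21 ± 0.03 for HSPA1A (adjusted p = 1.17e-06, edgeR) and -0.22 ± 0.03 for HSPA1B (adjusted p = 4.55e-06, edgeR). In mHAR123 they were -0.32 ± 0.04 for HSPA1A (adjusted p = 7.96e-09, edgeR) and -0.35 ± 0.04 for HSPA1B (adjusted p = 3.11e-09, edgeR).

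Against HAR123-KO neuroectoderm, in comparisons that leave out hHAR123, HSPA1A was higher by 0.53 ± 0.03 log2 units in cHAR123 (adjusted p = 1.11e-27, edgeR) and by 0.42 ± 0.03 in mHAR123 (adjusted p = 1.35e-16, edgeR). HSPA1B was higher by 0.61 ± 0.03 (adjusted p = 1.3e-27, edgeR) and 0.48 ± 0.03 (adjusted p = 5.18e-17, edgeR). These differences of the HSP70 pair, against hHAR123 and against HAR123-KO, passed on leaving out each library in turn. The order of cHAR123 and mHAR123 was less certain. HSPA1A differed between mHAR123 and cHAR123 by -0.11 ± 0.03 (adjusted p = 0.0136, edgeR) with overlapping libraries, and HSPA1B by -0.14 ± 0.03 (adjusted p = 0.00336, edgeR), which missed the threshold with adjusted p up to 0.0517 on leaving out cHAR123 replicate 1 or 3 or mHAR123 replicate 1 or 2.

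The coding sequences of HSPA1A and HSPA1B are both 1926 bases long and differ at 4 bases (99.8% identical, with a longest identical run of 1709 bases), so how reads were divided between them is uncertain. HSPA1A took 64.6% to 66.6% of the counts of both genes in every library. With both genes summed, the log2 fold change against hHAR123 neuroectoderm was -0.75 ± 0.03 in HAR123-KO (adjusted p = 2.07e-27, edgeR), -0.22 ± 0.03 in cHAR123 (adjusted p = 2.8e-07, edgeR) and -0.33 ± 0.03 in mHAR123 (adjusted p = 1e-09, edgeR). The neural crest and neuroectoderm markers given above also differed most in HAR123-KO neuroectoderm. So did summed surface ectoderm markers (241 to 251 CPM against 173 to 185 CPM in hHAR123, with KRT5 and KRT14 at 0 in both) and mesoderm markers (14.3 to 15.1 CPM against 5.49 to 5.76 CPM), while endoderm markers were at 47.6 to 51.4 CPM against 42.3 to 44.1 CPM with SOX17 at 0 in both. Few markers made up these sums. In both genotypes 2 of 8 mesoderm and 1 of 8 endoderm markers reached 1 CPM. Of 8 surface ectoderm markers, 5 did in HAR123-KO and 4 in hHAR123. Their part in the result was not tested. In bulk RNA, fewer cells that express a gene and less RNA per cell cannot be told apart.

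HSPA6 (ENSG00000173110, chr1:161524540-161526894), the HSP70 gene that is close to silent without stress, was measured as one of the other HSP70 genes and moved in the same order over a wider range. Its libraries held 244, 298 and 293 counts in hHAR123 neuroectoderm, 14, 9 and 7 in HAR123-KO, 114, 113 and 86 in cHAR123 and 92, 95 and 67 in mHAR123. In the 12 hESC libraries it held 0 to 4 counts. Every edited neuroectoderm library was below every hHAR123 library, and HAR123-KO was lowest. HSPA6 averaged 10.9 ± 0.575 CPM in hHAR123 and 0.391 ± 0.153 CPM in HAR123-KO neuroectoderm, or -4.79 ± 0.18 on the log2 scale (adjusted p = 5.23e-29, edgeR), a value that ranged from -5.13 to -4.58 on leaving out single libraries. It was -1.45 ± 0.10 in cHAR123 (adjusted p = 1.28e-14, edgeR) and -1.77 ± 0.11 in mHAR123 (adjusted p = 1.26e-15, edgeR), and the mHAR123 and cHAR123 values did not differ past the threshold (-0.32 ± 0.14, adjusted p = 0.176, edgeR). The pseudogene HSPA7 is a near copy, so counts of HSPA6 are uncertain.

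**Figure D4:**
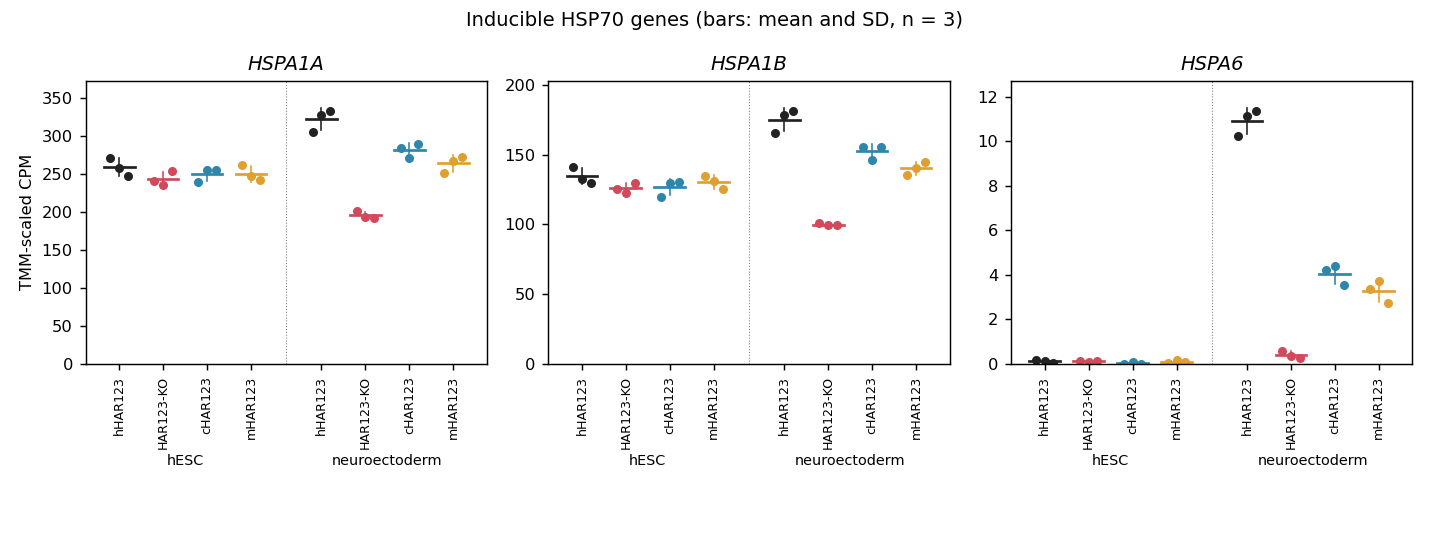
TMM-scaled CPM (vertical axis, linear from 0) of HSPA1A, HSPA1B and HSPA6 in every library of the 4 genotypes in hESCs and neuroectoderm; points are libraries, horizontal bars means and vertical bars SDs (n = 3). In neuroectoderm all 3 genes are highest in hHAR123 and lowest in HAR123-KO, and HSPA6 is near 0 in all hESC libraries.

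The constitutive HSP70 gene went the other way in HAR123-KO neuroectoderm. HSPA8 measured 507, 524 and 516 CPM in hHAR123 and 597, 589 and 596 CPM in HAR123-KO, without overlap, and its log2 fold change was 0.21 ± 0.03 (adjusted p = 3.63e-09, edgeR). In cHAR123 (526 to 533 CPM) and mHAR123 (488 to 509 CPM) it did not pass the test against hHAR123, with differences of 0.02 (95% interval -0.03 to 0.07) and -0.08 (-0.14 to -0.02). Relative to HAR123-KO, HSPA8 differed in cHAR123 by -0.17 ± 0.02 (adjusted p = 2.49e-11, edgeR) and in mHAR123 by -0.27 ± 0.02 (adjusted p = 2.36e-13, edgeR).

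HSP90AA1 and HSPH1 had their lowest means in mHAR123 neuroectoderm. HSP90AA1 measured 554, 536 and 539 CPM in hHAR123, 571, 562 and 564 CPM in HAR123-KO, 509, 501 and 488 CPM in cHAR123 and 492, 473 and 443.5 CPM in mHAR123. Against hHAR123 its log2 fold change was -0.14 ± 0.03 in cHAR123 (adjusted p = 7.48e-05, edgeR) and -0.24 ± 0.03 in mHAR123 (adjusted p = 4.12e-07, edgeR), both without overlap, and 0.06 in HAR123-KO (95% interval 0.01 to 0.12, adjusted p = 0.0483, edgeR). HSPH1 averaged 71.4 ± 1.75 CPM in hHAR123, 65.6 ± 1.81 in HAR123-KO, 64.8 ± 1.80 in cHAR123 and 57.7 ± 1.70 in mHAR123. HSPH1 was lower in mHAR123 (-0.34 ± 0.04, adjusted p = 1.7e-07, edgeR). Its difference in cHAR123 (-0.16 ± 0.04, adjusted p = 0.0038, edgeR) no longer passed without hHAR123 replicate 3, cHAR123 replicate 1 or cHAR123 replicate 3 (adjusted p up to 0.0396), and in HAR123-KO it did not pass (-0.12 ± 0.04, adjusted p = 0.014, edgeR). Relative to HAR123-KO, HSP90AA1 differed by -0.18 ± 0.02 in cHAR123 (adjusted p = 3.81e-12, edgeR) and by -0.28 ± 0.03 in mHAR123 (adjusted p = 1.49e-12, edgeR), and HSPH1 by -0.19 ± 0.04 in mHAR123 (adjusted p = 7.34e-05, edgeR).

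The J-domain genes DNAJA1 and DNAJB1 moved little in neuroectoderm. DNAJB1 was lower in HAR123-KO (57.7 ± 1.94 CPM against 65.6 ± 1.67 in hHAR123, log2 fold change -0.18 ± 0.04, adjusted p = 0.000331, edgeR). DNAJA1 measured 122 to 126 CPM in hHAR123 and 120 to 124 CPM in HAR123-KO, overlapping, with a 95% interval of the log2 difference of -0.10 to 0.04. In mHAR123 the falls of DNAJA1 (-0.14, adjusted p = 0.00397, edgeR) and DNAJB1 (-0.18, adjusted p = 0.00256, edgeR) both missed the threshold without hHAR123 replicate 2 or mHAR123 replicate 3, and that of DNAJA1 also without mHAR123 replicate 2 (adjusted p up to 0.0323 and 0.0239). HSPB1 and HSPA4L passed no test against hHAR123, but HSPB1 was lower in cHAR123 (14.3 to 14.6 CPM) than in HAR123-KO (16.6 to 19.1 CPM), with a log2 fold change of -0.30 ± 0.07 (adjusted p = 0.000181, edgeR). For HSPB1 the intervals of the log2 difference were 0.01 to 0.29 in HAR123-KO, -0.32 to -0.03 in cHAR123 and -0.07 to 0.22 in mHAR123, and for HSPA4L, with 50 to 88 counts a library, the 3 intervals together spanned -0.69 to 0.37.

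**Figure D5:**
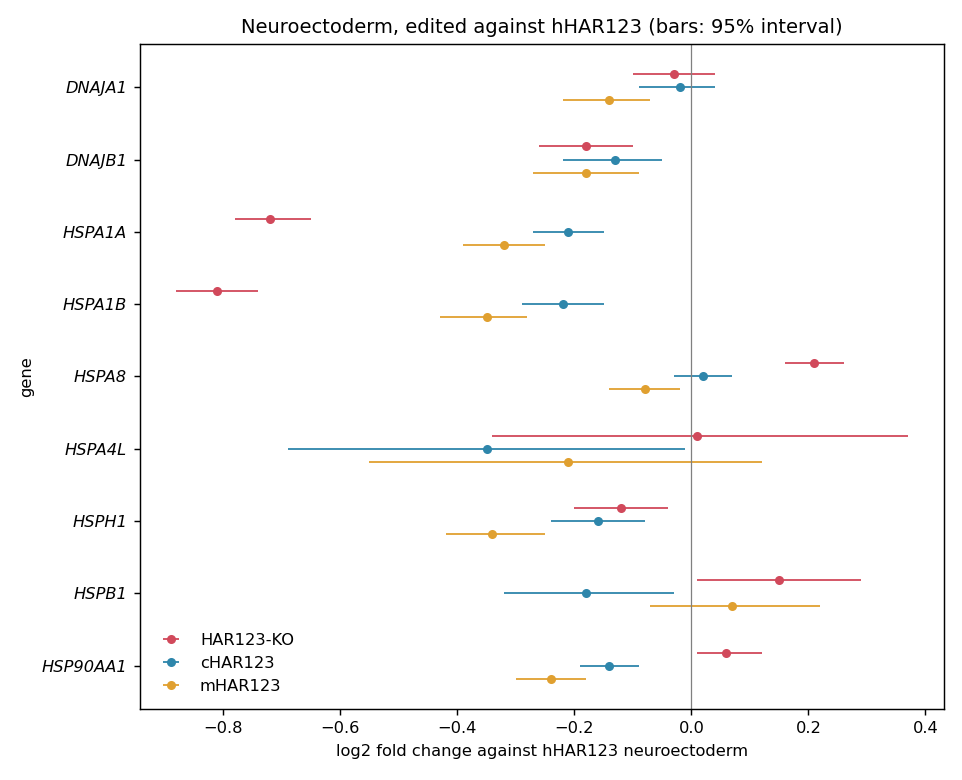
Log2 fold change against hHAR123 neuroectoderm (horizontal axis) of the 9 chaperone genes that passed the low count filter, in HAR123-KO, cHAR123 and mHAR123, with 95% intervals from edgeR as bars. HSPA1A and HSPA1B in HAR123-KO lie farthest from 0, below -0.6, while HSPA8 in HAR123-KO lies above 0.

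No member tested passed both thresholds in neuroectoderm, in either tool: edgeR and DESeq2 called 0 of 9 against hHAR123 in HAR123-KO (9.45% of all genes were called in edgeR), cHAR123 (0.978%) and mHAR123 (1.03%). In that order 7, 6 and 7 members had an unadjusted p under 0.05. The share of all genes at that unadjusted p is not given here. Nothing is therefore read from these member counts, or from those below at that p. At an adjusted p under 0.01 and any fold, 1 of 9 was higher and 3 were lower in HAR123-KO, where 44.1% of all genes passed, a share close to that of the members. In cHAR123 4 of 9 were lower, where 3.99% of all genes were, and in mHAR123 6 of 9, where 5.21% were. The median log2 fold change of the 9 members was -0.03, -0.16 and -0.21 in that order, beside 0.00, -0.01 and -0.01 over all genes tested. Against HAR123-KO neuroectoderm, 0 of 9 were called in cHAR123 (7.61% of all genes) or mHAR123 (7.33%) by edgeR or DESeq2, with 5 and 6 at an unadjusted p under 0.05. Between mHAR123 and cHAR123, 0 of 9 were called by either tool (0.261% of all genes), 7 had an unadjusted p under 0.05, and 5 of 9 were lower in mHAR123 at an adjusted p under 0.01 (1.56% of all genes were). Each of those 5 differences (DNAJA1, HSPA1B, HSPA8, HSPH1 and HSP90AA1) missed that p threshold on leaving out at least 1 library, with adjusted p up to 0.0837.

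The wider chaperone network was read from lists of 65 further genes. In hHAR123 cells 58 were tested between the stages, and 46 were lower and 10 higher in neuroectoderm at an adjusted p under 0.01 (39.7% of all genes tested were lower and 40.3% higher), with a median log2 fold change of -1.10 against 0.05 over all genes. By class, all 10 chaperonin genes were lower, among them the mitochondrial pair HSPE1 (-2.0 ± 0.05, adjusted p = 1.9e-30, edgeR) and HSPD1 (-1.97 ± 0.03, adjusted p = 9.56e-39, edgeR). All 3 other HSP90 genes were lower, including HSP90AB1, the constitutive cytosolic form (-1.54 ± 0.03, adjusted p = 3.76e-37, edgeR). Of 17 co-chaperones 16 were lower, led by the immunophilin FKBP4 (-2.97 ± 0.04, adjusted p = 5.82e-41, edgeR) and the HSP70 cofactor BAG2 (-2.84 ± 0.13, adjusted p = 2.48e-22, edgeR). Of 11 other HSP70 and HSP110 genes 8 were lower, with HSPA12B (-2.54 ± 0.11, adjusted p = 2.69e-22, edgeR) and HSPA2 (-2.07 ± 0.07, adjusted p = 4.35e-26, edgeR) lowest, and 2 were higher, HSPA6 and HSPA13. Of 10 other DNAJ genes 6 were lower and 4 higher, from -1.26 ± 0.05 for DNAJB5 (adjusted p = 1.16e-23, edgeR) to 1.54 ± 0.07 for DNAJB4 (adjusted p = 5.55e-22, edgeR). HSPB8 was the lowest of the small heat shock protein genes (-3.99 ± 0.24, adjusted p = 2.61e-18, edgeR). Of the 4 genes tested in the list of heat shock factors 3 were higher (HSF4, HSF2 and HSBP1) and 1 lower. HSBP1 encodes a protein that binds heat shock factors and is not itself such a factor. HSF4, known for its part in the lens, held 1, 1 and 0 counts in hESCs and 30, 30 and 51 in neuroectoderm, a ratio of 65.7 (95% exact binomial interval of the count ratio 17.8 to 549.4), and its fitted log2 fold change was 5.78 ± 0.54 (adjusted p = 1.24e-12, edgeR). HSF2 was higher by 1.21 ± 0.06 (adjusted p = 2.51e-20, edgeR), and HSF1, the stress-responsive factor, was lower (-0.77 ± 0.04, adjusted p = 3.25e-20, edgeR). These stage counts and fold changes are by TMM, and the counts may differ by library totals alone. By totals alone FKBP4 gave -2.68, HSF1 -0.48 and DNAJB5 -0.97, the last no longer past the fold threshold.

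In HAR123-KO against hHAR123 neuroectoderm, 57 of the 65 were tested, 21 were higher and 14 lower at an adjusted p under 0.01, and 22 did not pass. Over all genes tested 24.2% were higher and 19.9% lower, the shares beside which the counts by class below stand. The median was 0.07 against 0.00 over all genes. Of 10 other DNAJ genes 4 were lower and 1 higher, with DNAJB9 (-0.33 ± 0.08, adjusted p = 0.000928, edgeR) and DNAJB4 (-0.32 ± 0.06, adjusted p = 1.87e-05, edgeR) lowest. Of 10 chaperonin genes 5 were higher and 1 lower, led by CCT5 (0.50 ± 0.03, adjusted p = 3.68e-18, edgeR), a subunit of the cytosolic folding ring. HSP90AB1 was higher (0.27 ± 0.03, adjusted p = 2.23e-13, edgeR), as was HSF1 (0.34 ± 0.04, adjusted p = 1.46e-09, edgeR), averaging 73.8 ± 3.40 CPM against 58.4 CPM. HSF2 was lower (-0.17 ± 0.06, adjusted p = 0.00934, edgeR), a difference that missed the threshold without replicate 1 or 2 of either genotype (adjusted p up to 0.122). Of 17 co-chaperones 9 were higher and 4 lower, from -0.31 ± 0.04 for CHORDC1 (adjusted p = 3.52e-08, edgeR) to 0.48 ± 0.07 for HSPBP1 (adjusted p = 4.28e-08, edgeR). Only HSPA6 and the small heat shock protein gene CRYAB (-1.63 ± 0.41, adjusted p = 0.000739, edgeR, at 0.235 against 0.741 CPM) passed the fold threshold as well, both lower. Of all genes tested 4.52% were called lower and 4.92% higher. CRYAB missed the p threshold without hHAR123 replicate 1 or HAR123-KO replicate 2 (adjusted p up to 0.0146).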

How the data were processed

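RNA was sequenced from H9 cells of 4 genotypes at 2 stages. Per the paper's methods and the labels, the authors depleted ribosomal RNA, made directional paired-end libraries, aligned reads to GRCh38 with STAR 2.5.2b (Ensembl 106) and tallied exonic reads by gene in featureCounts. What they deposited are unnormalized counts. Whether counting used strand is not given in the sources used here, so genes overlapping on opposite strands are uncertain. Reads lost to filtering or multiple mapping cannot be seen, which bears on HSPA1A, HSPA1B and HSPA6. The broken entry of ANK2 was left out.

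The 6 libraries of each comparison were fitted alone in edgeR 4.0.16 (R 4.3.3) after filterByExpr and TMM scaling, using quasi-likelihood F tests, with p adjusted by Benjamini-Hochberg across all genes tested. A call needed an adjusted p under 0.01 together with a log2 change over 1 in size, as in the study's methods, and "passed" means an adjusted p under 0.01 at any fold. There were 16 comparisons. Where nothing says that libraries came from separate cultures, p measures only the spread between these libraries. The members and lists were chosen with earlier results of these data known, and the contrasts of edited against hHAR123 hESCs were used in the choice, so they carry no p, and neither does the stage change of DNAJA4. Intervals of count ratios are exact binomial (95%) and cover counting error only, with 3 counts as the limit for a count of 0. Replicates of a group differed by more than sampling noise (chi-square per degree of freedom 1.41 to 5.53). Alternatives were DESeq2 1.42.0, its size factors, no low count filter, 1 fit of all 24 libraries, a replicate block, an adjusted p under 0.05, leaving out each library and, chosen after seeing the data, library totals without TMM and HSPA1A with HSPA1B summed. The statistics were tested on simulated data. All 10 members are named, as are, from the other lists in the comparisons of hHAR123 stages and of HAR123-KO with hHAR123 neuroectoderm, genes from among the 2 per list with the largest change in each direction that passed, neighbors of DNAJA4 within 250 kb at 1 CPM or more, and the closest profiles to DNAJA4 (pseudocount 0.1), of which the first 3 are given and the rest are not reported here.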

Additional observations from a re-analysis of the deposited data

Results flagged for a closer look

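HSPA1A and HSPA1B were singled out because neuroectoderm libraries were all above the hESC libraries in hHAR123 and all below them in HAR123-KO. The HAR123-KO effect in neuroectoderm minus that in hESCs was -0.65 ± 0.05 (SE) on the log2 scale for HSPA1A and -0.73 ± 0.05 for HSPA1B. HSPA8 was singled out because every cHAR123 library was below hHAR123 in hESCs and above it in neuroectoderm, and the cHAR123 effect was 0.23 ± 0.03 log2 units higher in neuroectoderm. The separation in neuroectoderm depended on the scaling: by library totals alone the cHAR123 libraries held 572 to 578 CPM and the hHAR123 libraries 569 to 579.7 CPM, overlapping, with a log2 fold change of 0.00. The doubt about the neuroectoderm names of cHAR123 and mHAR123 also touches this value. HSP90AA1 was singled out because every HAR123-KO library was below hHAR123 in hESCs and above it in neuroectoderm, a difference of 0.09 ± 0.03. By library totals alone the HSP90AA1 libraries of both genotypes overlapped at both stages, with log2 fold changes of -0.01 in hESCs and 0.01 in neuroectoderm. These differences were not tested, because the hESC effects belong to the contrasts that were used to choose the genes.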

How the results depend on the processing

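Of 1940 alternative values of the members' fold changes, 1828 kept their side of the threshold, 76 lost it, 33 gained it and 3 that had passed changed sign. The 3 were the stage change of DNAJB1 by library totals without TMM, at 0.09 in hHAR123, 0.04 in cHAR123 and 0.00 in mHAR123. Changes of sign in values that did not pass were not counted. An example is HSPA4L in HAR123-KO against hHAR123 neuroectoderm, at -0.23 to 0.18 on leaving out single libraries. The contrasts of edited against hHAR123 hESCs are in these counts, and no p is read from those contrasts. With all 24 libraries in 1 fit, 1 member (DNAJA4, at or near a count of 0) was called in HAR123-KO and 1 in mHAR123 neuroectoderm. Over all genes that fit called 2183 and 254 there. The separate fits called 0 members and left DNAJA4 out for low counts. The fit of all libraries includes hHAR123 hESCs (55, 64 and 76 counts of DNAJA4), whose high values led to its choice. These calls of DNAJA4 are therefore not independent of the choice, and nothing is read from them. Replicate numbers did not pair the libraries (correlations of same-numbered deviations -0.203 to 0.222, and every pair over 0.1 in 0 of 16 comparisons). A replicate block left 144 values as they were. Outside the contrasts used in the choice, it lost DNAJA1 between mHAR123 and cHAR123 neuroectoderm (-0.12) and the HSPA1A stage change in mHAR123 (0.09). It gained HSPA8 in mHAR123 neuroectoderm (-0.08). Over all genes, DESeq2 called 155 where edgeR called 246 in HAR123-KO hESCs against hHAR123, 73 against 178 in cHAR123 and 107 against 260 in mHAR123. In neuroectoderm it called 124 against 208 in cHAR123 and 131 against 219 in mHAR123, and 12 against 55 between these. Against HAR123-KO hESCs it called 19 against 56 in cHAR123 and 10 against 51 in mHAR123, and an adjusted p under 0.05 gave 111 and 93. Depth limits DNAJA4 in neuroectoderm and HSPA4L.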
